A study of Mus musculus with 4 samples.

Results

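The clock output genes examined here are 10 transcription regulators chosen by symbol, namely *Dbp*, *Tef*, *Hlf*, *Nfil3*, *Bhlhe40*, *Bhlhe41*, *Nr1d1*, *Nr1d2*, *Ciart* and *Rora*. Each of the 10 was found once among the 19645 features of the deposited tables. RNA of undifferentiated mouse embryonic stem cells (ESCs), which derive from the inner cell mass of the blastocyst, was sequenced as 2 wild-type (WT) libraries and 2 *Bmal1* KO libraries. The KO cells carry a short CRISPR-Cas9 deletion at the start codon of *Bmal1* (symbol *Arntl*) and are 1 selected clone. Both lines were grown in serum-containing medium with the cytokine LIF, and the labels give neither age nor further treatment. The study calls the libraries biological duplicates, but the labels name no separate cultures for replicates 1 and 2. The p-values therefore measure the spread between these libraries only, and genotype cannot be told apart from clone.

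BMAL1 and its partner CLOCK bind E-boxes and switch on genes whose products close the feedback loops of the circadian clock. Several of these products are regulators themselves: DBP, TEF and HLF, the PAR bZIP factors, activate D-box genes that NFIL3 represses, and ROR proteins activate the elements that the REV-ERB receptors NR1D1 and NR1D2 repress, among them one in *Bmal1*. BHLHE40 and BHLHE41 (DEC1 and DEC2) compete for E-boxes and repress, and CIART (CHRONO) represses the BMAL1-CLOCK pair. ESCs express many of these genes but show no circadian oscillation, so each library is read here as a steady level and not as a phase of a rhythm.

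Expression was deposited as FPKM, a fragment count divided by transcript length and by the size of the library. Pairs of values below are given in the order of replicates 1 and 2. Read numbers cannot be recovered from these estimates, so depth is unknown and the precision of a value is judged from the 2 libraries of its group. Features without a symbol took 26.8% and 37.3% of the summed FPKM in WT, against 19.0% and 18.1% in KO. The chromosome Y gene *Ddx3y* was at 0.235 and 0.403 FPKM in WT and at 16.4 and 20.6 in KO, so the lines differ in more than *Bmal1*, and the part of that difference in the results below was not tested. *Arntl* itself had 6.05 and 6.29 FPKM in WT against 5.95 and 5.92 FPKM in KO. The groups differed by -0.06 on the log2 scale (95% interval -0.31 to 0.19), and since FPKM does not register a short deletion this level is no check of the genotype. ESC identity was read from 11 markers, which summed to 6662 to 7453 FPKM in the 4 libraries, with *Pou5f1* between 1389 and 1620.

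The DEC repressor gene *Bhlhe40* and the PAR bZIP genes *Dbp* and *Tef* rose in *Bmal1* KO ESCs, while both REV-ERB genes, *Rora*, *Nfil3* and *Ciart* did not pass the test. *Bhlhe40* rose by 1.99 on the log2 scale, *Dbp* by 1.39 and *Tef* by 0.78. *Bhlhe41* and *Hlf*, both close to the lower end of the FPKM range, were also higher in both KO libraries than in both WT libraries. Differences were tested with limma on log2(FPKM + 0.1), over the 12990 features that averaged 0.5 FPKM or more, and p-values were adjusted over all of them. Of the 10 genes 8 passed that minimum and 2, *Hlf* and *Bhlhe41*, did not. By limma 3 of the 8 were higher in KO at an adjusted p below 0.05, beside 6.85% of all tested features, and 0 were lower, beside 5.6% of them. At an unadjusted p under 0.05 the counts were also 3 and 0, beside 14.1% and 15.5% of all tested features. *Bhlhe40* and *Dbp* also changed more than 2-fold, as 2.72% of tested features did in that direction, whereas 1.42% did so in the other. At 7 of the 10 genes the lower KO library exceeded the higher WT library, as at 25.1% of all 19645 features, and at 1 gene the order was the reverse, as at 26.2%. Among the 8 tested genes these numbers were 5, beside 27% of tested features, and 1, beside 31.7%. The median log2 fold change of the 8 tested genes was 0.32, beside -0.02 over all tested features. The genes were picked by symbol and 5 of the 8 did not pass, so the counts describe these genes and no more.

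**Figure D1:**
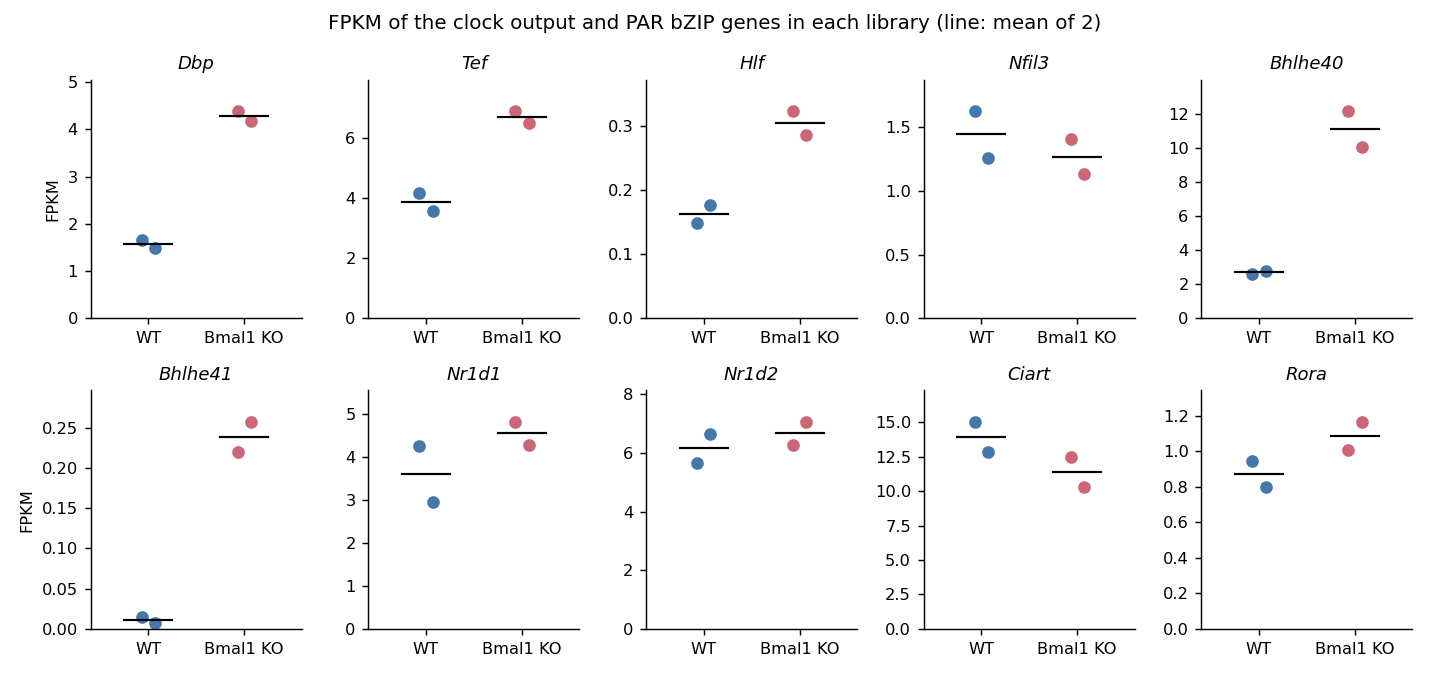
FPKM (y axis, linear, from 0) of each of the 10 genes in the 2 WT and 2 *Bmal1* KO libraries; each point is 1 library and the line is the mean of 2. *Dbp*, *Tef* and *Bhlhe40* have both KO points well clear of both WT points, *Bhlhe41* moves from 0.0111 to 0.238 FPKM on a much lower axis, and the points of *Nfil3* and *Nr1d2* overlap.

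BMAL1 acts at E-boxes, so the promoter windows that hold one, of *Tef*, *Bhlhe41* and *Ciart*, are shown beside that of *Dbp*. *Dbp* rose, and its window holds none. Sequence outside these short windows, such as introns or bases farther upstream, was not searched, so a gene may have E-boxes there. RefSeq windows of GRCm38.p6, from 250 bases before to 50 bases after a gene's start, were at hand for 9 of the 10 genes, as 10 windows because *Tef* has 2 starts, and *Bhlhe40* is not among them. They are written 5′ to 3′ on the strand of the gene, with each CACGTG (the E-box) and each CACGTT or its complement (the E′-box) in capitals: *Dbp* at chr7:45704997-45705296 on the plus strand, *Tef* at chr15:81802423-81802722 on the plus strand, *Bhlhe41* at chr6:145865371-145865670 on the minus strand, and *Ciart* at chr3:95882179-95882478 on the minus strand.
Dbp: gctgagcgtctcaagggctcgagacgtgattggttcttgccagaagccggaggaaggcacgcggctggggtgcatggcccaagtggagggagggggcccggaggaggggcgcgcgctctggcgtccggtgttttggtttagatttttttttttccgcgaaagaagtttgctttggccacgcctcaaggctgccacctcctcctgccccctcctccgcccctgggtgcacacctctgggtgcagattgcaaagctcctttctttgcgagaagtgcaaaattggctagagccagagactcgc
Tef: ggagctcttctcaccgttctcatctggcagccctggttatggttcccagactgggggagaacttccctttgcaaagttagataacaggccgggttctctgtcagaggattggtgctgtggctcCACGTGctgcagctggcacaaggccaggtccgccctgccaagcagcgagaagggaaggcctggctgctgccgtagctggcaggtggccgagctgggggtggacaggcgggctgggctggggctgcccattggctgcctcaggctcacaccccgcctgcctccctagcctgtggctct
Bhlhe41: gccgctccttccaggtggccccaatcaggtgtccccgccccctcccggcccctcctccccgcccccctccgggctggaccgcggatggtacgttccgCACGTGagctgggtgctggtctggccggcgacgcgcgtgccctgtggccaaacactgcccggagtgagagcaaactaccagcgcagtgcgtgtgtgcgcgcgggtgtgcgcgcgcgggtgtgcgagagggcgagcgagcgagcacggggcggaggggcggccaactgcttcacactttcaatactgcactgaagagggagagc
Ciart: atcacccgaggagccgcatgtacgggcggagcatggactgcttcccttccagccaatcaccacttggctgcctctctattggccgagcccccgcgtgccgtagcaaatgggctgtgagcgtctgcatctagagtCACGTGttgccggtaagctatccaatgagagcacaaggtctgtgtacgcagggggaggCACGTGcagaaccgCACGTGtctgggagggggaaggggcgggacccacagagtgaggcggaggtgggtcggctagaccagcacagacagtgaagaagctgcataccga

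In these windows *Ciart* had 3 E-boxes, beginning 116, 58 and 44 bases before the start, and 0.0883% of the 32851 mouse windows of that length hold 3 or more. *Tef* had 1 E-box, 127 bases before the start at which its feature begins, and 1 more in the window of its other start. *Bhlhe41* had 1 E-box, 153 bases before the start. An E-box was thus present in 4 of the 10 windows, which belong to 3 of the 9 genes, and in 7.15% of all windows. The windows of *Hlf*, *Nr1d1* and *Rora*, whose KO libraries were also above the WT libraries, held no E-box, nor did those of *Nfil3* and *Nr1d2*. *Dbp* had neither an E-box nor an E′-box in its window, and *Nr1d1* had 1 E′-box, a form found in 4.68% of all windows. The D-box letters TTATGTAA or TTACGTAA were in none of the 10 windows and in 1.06% of all windows. The letters AGGTCA, the half-site of the element shared by ROR and REV-ERB proteins, were in the windows of *Nfil3* and *Nr1d2* and in 16.3% of all windows. All motifs were searched on both strands, and each match describes letters only. Windows with an E-box belong both to *Tef*, which rose, and to *Ciart*, which did not pass the test. Any relation between these letters and the changes in KO was not tested, and *Bhlhe40* had no window.

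Among the PAR bZIP activators, *Dbp* (ENSMUSG00000059824.12) encodes a D-box activator with a strong circadian swing in adult tissues. It had 1.65 and 1.499 FPKM in WT against 4.40 and 4.17 FPKM in KO. The KO libraries were both more than 2 times as high as either WT library. The log2 fold change was 1.39 (standard error 0.14, 95% interval 1.04 to 1.74, adjusted p = 0.00576 from limma), higher than at 98.4% of tested features. *Tef* (ENSMUSG00000022389.15), a paralog expressed in many tissues, had 4.16 and 3.57 FPKM in WT and 6.92 and 6.51 in KO, and the groups did not overlap. Its log2 fold change of 0.78 (limma adjusted p = 0.0174, standard error 0.13) stayed below 2-fold, with a 95% interval of 0.47 to 1.10. *Hlf* (ENSMUSG00000003949.16), the member known best from haematopoietic stem cells and liver, had 0.149 and 0.176 FPKM in WT and 0.323 and 0.286 in KO. These levels are below the minimum for testing, although both KO libraries were above both WT libraries. With no minimum its log2 fold change was 0.62 (95% interval 0.02 to 1.23, adjusted p = 0.202 from limma), which did not pass.

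*Nfil3* (ENSMUSG00000056749.7) encodes the repressor that binds the D-box in place of these activators. It had 1.63 and 1.26 FPKM in WT against 1.41 and 1.13 FPKM in KO. The groups overlapped, and the log2 fold change of -0.17 did not pass (95% interval -0.72 to 0.38, adjusted p = 0.652 from limma). Without WT replicate 1 the value turned to 0.0028. The summed FPKM of the 3 activators was 3.66 and 4.16 times that of *Nfil3* in the WT libraries and 8.26 and 9.69 times in the KO libraries. The means of the log2 ratios differed by 1.198, with an SD of 0.13 in WT and 0.16 in KO (n = 2 each). A two-sided exact permutation test gave p = 0.333, the smallest that 2 against 2 libraries allow. The ratio was higher in each KO library than in each WT library.

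Of the clock output genes tested, the DEC repressor gene *Bhlhe40* had the largest log2 fold change. *Bhlhe40* (ENSMUSG00000030103.11), which answers to hypoxia, serum and differentiation signals as well as to the clock, had 2.62 and 2.79 FPKM in WT against 12.2 and 10.03 FPKM in KO. The lowest KO library was thus far above the highest WT library. Its log2 fold change was 1.99 (standard error 0.13, 95% interval 1.66 to 2.32, adjusted p = 0.00226 from limma), the 68th highest of the 12990 tested. *Bhlhe41* (ENSMUSG00000030256.11), its paralog, had 0.0143 and 0.00794 FPKM in WT and 0.219 and 0.257 in KO. The ratio of means was 21.4, between levels that are both under the minimum for testing. With no minimum the log2 fold change was 1.604 (95% interval 1.06 to 2.15, adjusted p = 0.0306 from limma), where 2.91% of features passed in that direction. The size depends on the pseudocount, since it was 0.29 with a pseudocount of 1 and 3.57 with 0.01, both with adjusted p under 0.05. Leaving out any 1 of the 4 libraries gave 1.52 to 1.69 with an adjusted p of 0.212 to 0.278, so no such set of 3 libraries passed. In KO the FPKM of *Bhlhe41* remained far below that of *Bhlhe40*.

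*Ciart* (ENSMUSG00000038550.10), whose product represses BMAL1-CLOCK and recruits deacetylases, was the most abundant of the 10 genes in WT. It had 15.0 and 12.8 FPKM in WT against 12.5 and 10.3 FPKM in KO. The KO libraries were both below the WT libraries, but by less than the WT libraries differed from each other in the closest pair. The log2 fold change of -0.29 did not pass (standard error 0.13, 95% interval -0.62 to 0.04, adjusted p = 0.207 from limma). Its promoter window is the one with 3 E-boxes.

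The REV-ERB receptors, haem-binding repressors of *Bmal1* and of lipid and mitochondrial genes, did not pass either. *Nr1d1* (ENSMUSG00000020889.11) had 4.26 and 2.96 FPKM in WT against 4.82 and 4.29 FPKM in KO. KO replicate 2 exceeded WT replicate 1 by a margin much smaller than the gap between the WT libraries. The log2 fold change was 0.35 (95% interval -0.13 to 0.83, adjusted p = 0.295 from limma), but without WT replicate 1 it was 0.60 with an adjusted p of 0.0435. *Nr1d2* (ENSMUSG00000021775.11) had 5.66 and 6.66 FPKM in WT and 6.28 and 7.07 in KO, and the groups overlapped. Its log2 fold change was 0.12 (95% interval -0.20 to 0.43, adjusted p = 0.593 from limma). *Rora* (ENSMUSG00000032238.17), the activator that competes with them, had 0.943 and 0.797 FPKM in WT and 1.01 and 1.17 in KO. The groups did not overlap, and the log2 fold change of 0.29 did not pass (95% interval -0.26 to 0.84, adjusted p = 0.436 from limma). The ratio of *Rora* to the sum of the 2 REV-ERB genes was 0.0950 and 0.0829 in WT and 0.0908 and 0.103 in KO. Its groups overlapped, with a difference of 0.12 on the log2 scale (p = 0.667, two-sided exact permutation test).

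**Figure D2:**
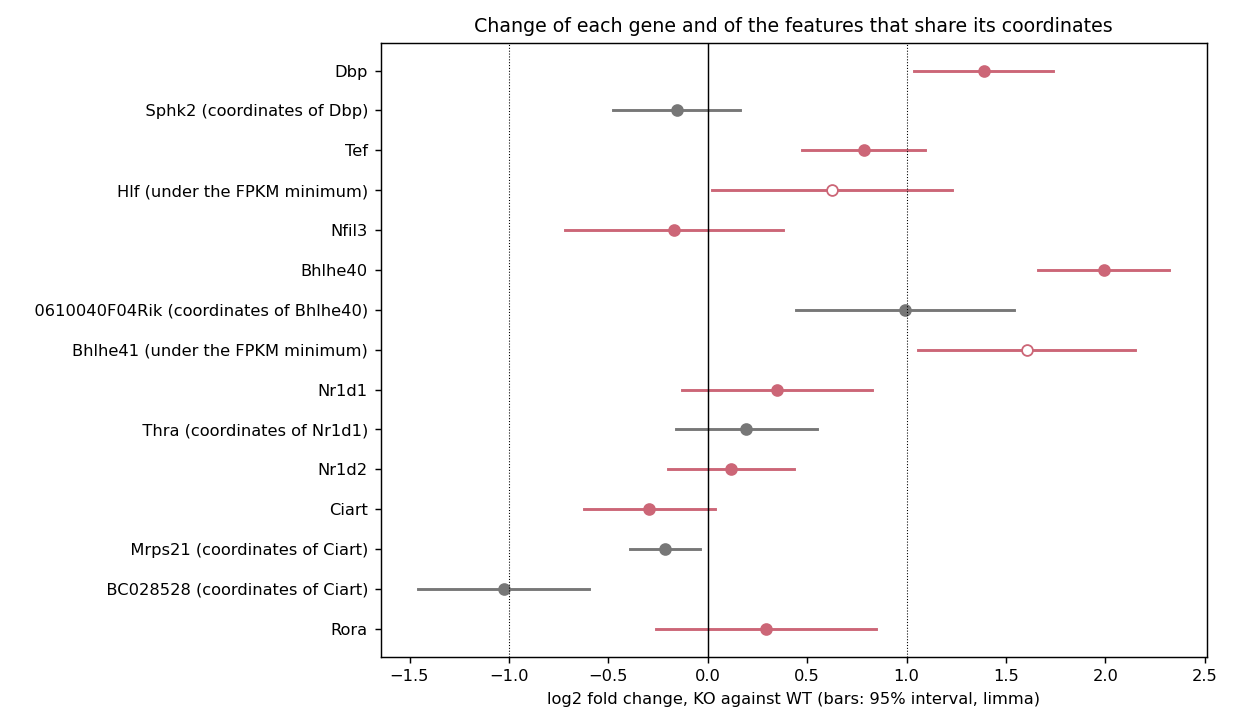
Log2 fold change of *Bmal1* KO against WT (x axis) for the 10 genes (red) and the tested features that share their coordinates (grey), with 95% intervals from limma; dotted lines mark 2-fold and hollow points are genes tested only without the FPKM minimum. The intervals of *Dbp*, *Tef*, *Hlf*, *Bhlhe40* and *Bhlhe41* lie above 0, as does that of 0610040F04Rik, those of *Mrps21* and BC028528 lie below 0, and *Sphk2* at the *Dbp* locus has an interval of -0.48 to 0.16.

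On the FPKM scale, which accounts for length, the order of levels in WT ran from *Ciart* (13.9 ± 1.56, SD, n = 2) over *Nr1d2* (6.16 ± 0.705), *Tef* (3.86 ± 0.421), *Nr1d1* (3.61 ± 0.919), *Bhlhe40* (2.70 ± 0.120), *Dbp* (1.58 ± 0.110), *Nfil3* (1.45 ± 0.261) and *Rora* (0.870 ± 0.103) to *Hlf* (0.163 ± 0.0196) and *Bhlhe41* (0.0111 ± 0.00450). Neighbours in that order did not separate for *Tef* and *Nr1d1*, nor for *Dbp* and *Nfil3*. In KO *Bhlhe40* reached 11.1 ± 1.51 FPKM (SD, n = 2) and overlapped *Ciart* at 11.4 ± 1.52. *Tef* at 6.71 ± 0.292 FPKM overlapped *Nr1d2* at 6.67 ± 0.555, and *Dbp* at 4.28 ± 0.157 FPKM overlapped *Nr1d1* at 4.56 ± 0.378. The mean of *Bhlhe40* stood above 51.7% of all features in WT and above 70.3% in KO, and that of *Dbp* above 45.8% and 56.8%.

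Of the 10 genes 5 share their listed coordinates with another feature, and because the strand setting of the counting is not given in the sources used here, reads in an overlap cannot be assigned to either gene. In GRCm38 *Dbp* runs from 45705088 to 45710203 of chromosome 7 (plus strand), while its feature runs from 45705061 to 45718002 and is also that of *Sphk2*, a sphingosine kinase gene on the minus strand. Exons of *Sphk2* cover 539 bases, or 18.0%, of the exonic bases of *Dbp*. *Sphk2* had 20.6 and 16.3 FPKM in WT and 17.1 and 15.8 in KO, and its log2 fold change of -0.16 had the opposite sign to that of *Dbp* (95% interval -0.48 to 0.16, adjusted p = 0.475 from limma). *Car11*, 399 bases upstream of that feature and named after its values were seen, was at 1.37 and 1.33 FPKM in WT and at 2.63 and 2.22 in KO, a rise of 0.79 on the log2 scale (adjusted p = 0.0382 from limma). *Bhlhe40* runs from 108660629 to 108666925 of chromosome 6 (plus strand), within a feature that starts at 108577036. The antisense transcript 0610040F04Rik has the same feature coordinates and shares 118 exonic bases with it, 2.51% of those of *Bhlhe40*. It had 0.979 and 1.45 FPKM in WT and 2.54 and 2.42 in KO, a rise of 0.99 on the log2 scale (95% interval 0.44 to 1.54, adjusted p = 0.0423 from limma).

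The remaining shared loci are those of *Nr1d1*, *Ciart* and *Rora*. *Nr1d1*, on the minus strand of chromosome 11 from 98767932 to 98775333, converges with *Thra*, the thyroid hormone receptor alpha gene, and 263 bases (8.55%) of its exons are shared. *Thra* had 2.78 and 2.64 FPKM in WT and 3.36 and 2.89 in KO, with a log2 fold change of 0.19 that did not pass (adjusted p = 0.422 from limma). *Ciart*, on the minus strand of chromosome 3 from 95878503 to 95882251, shares its feature with *Mrps21*, BC028528 and C920021L13Rik. Of annotated genes only the antisense C920021L13Rik overlaps the span of *Ciart*, without a shared exonic base. BC028528, also on the minus strand, fell by 1.03 on the log2 scale, from 13.1 and 10.8 FPKM in WT to 4.99 and 6.72 in KO (adjusted p = 0.0201 from limma). *Mrps21*, a mitochondrial ribosomal protein gene, had 256 and 263 FPKM in WT and 229 and 218 in KO, with a log2 fold change of -0.22 (adjusted p = 0.111 from limma). *Rora*, on the plus strand of chromosome 9 from 68653786 to 69388246, shares its feature with 9530091C08Rik, which had at most 0.0167 FPKM. *Tef*, *Hlf*, *Nfil3*, *Bhlhe41* and *Nr1d2* have features of their own. *Bhlhe41* nevertheless shares 1280 exonic bases (19.0%) with Gm43909, a gene on the opposite strand. *Tef* shares 193 (2.45%) with the antisense gene Gm17597, and *Rora* 82 (0.627%) with the antisense gene Gm15511. None of these overlapping genes was found by symbol among the features.

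Each gene was set beside the 10 nearest tested positions on each side of it. Features with the gene's own coordinates were left out, such as 0610040F04Rik at *Bhlhe40*, with a log2 fold change of 0.99. The 20 positions spanned 487 kb around *Dbp*, 1494 kb around *Tef*, 13722 kb around *Bhlhe40* and 5630 kb around *Bhlhe41*. The 20 positions around *Bhlhe40* had a median log2 fold change of 0.05 and ran from -0.41 to 0.65. Around *Bhlhe41*, also on chromosome 6, the median was -0.03 and the range -0.58 to 0.45. The positions around *Tef* had a median of -0.16 and reached 0.27. Those around *Dbp* had a median of 0.05 and reached 0.84. At each of these 4 loci 0 of the 20 positions exceeded the gene itself, although *Car11* beside *Dbp* rose as well. *Bhlhe40*, *Dbp* and *Tef* were higher than 99.5%, 98.4% and 94.5% of all tested features, so few of any 20 positions would exceed them. The value of *Bhlhe41* depends on the pseudocount and was 0.29 with a pseudocount of 1. Of the 20 positions around each of the other genes, 3 exceeded *Hlf*, 2 *Nr1d1*, 2 *Rora*, 4 *Nr1d2*, 10 *Nfil3* and 17 *Ciart*.

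**Figure D3:**
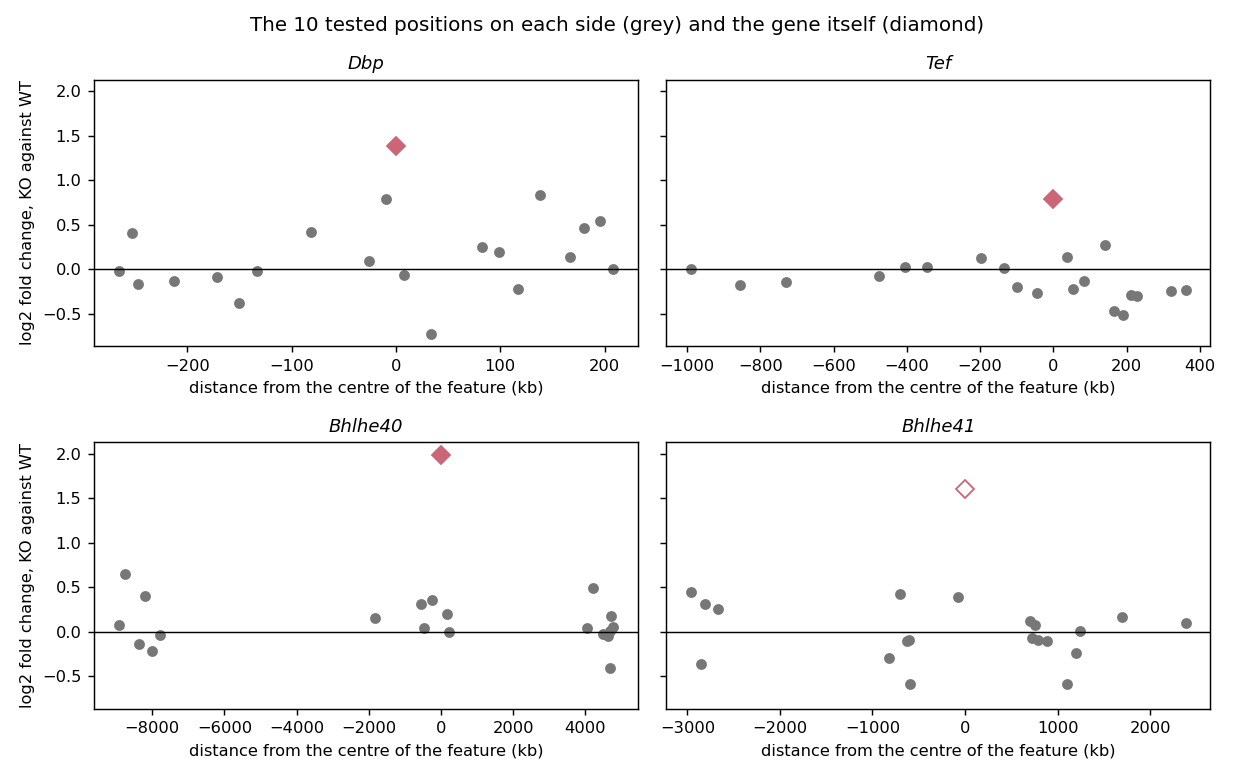
Log2 fold change of *Bmal1* KO against WT (y axis) of *Dbp*, *Tef*, *Bhlhe40* and *Bhlhe41* (diamonds, hollow for *Bhlhe41*, which is under the FPKM minimum) and of the 10 nearest tested positions on each side (grey points, mean of features with the same coordinates), by distance from the feature's centre in kilobases. Features with a gene's own coordinates are not drawn. Each diamond lies above all 20 of its grey points, whose medians are 0.05, -0.16, 0.05 and -0.03. The diamond of *Bhlhe41* comes from the fit without the FPKM minimum, and its value was 0.29 with a pseudocount of 1.

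The rest of the clock pathway was taken from 7 lists written by symbol, with 54 genes besides the 10. Of these, 50 had a feature and 37 passed the FPKM minimum, of which 0 were higher and 1 was lower at an adjusted p under 0.05 from limma, beside the 6.85% and 5.6% of all tested features given above. At an unadjusted p under 0.05 they were 3 and 6 of the 37, beside 14.1% and 15.5%. Their median log2 fold change was 0.01, beside -0.02 over all tested features. The gene that fell was *Ccrn4l* (nocturnin), a rhythmic phosphatase of NADP(H), which had 52.5 and 53.6 FPKM in WT and 38.8 and 39.0 in KO. Its log2 fold change was -0.45 (limma adjusted p = 0.0170, standard error 0.07). In the core loop 6 of 9 genes were tested and none passed. *Per1*, an E-box gene whose product inhibits BMAL1-CLOCK, had 4.98 and 3.92 FPKM in WT and 6.31 and 5.26 in KO, a log2 fold change of 0.37 (95% interval -0.03 to 0.78, adjusted p = 0.193 from limma). *Per3* had a log2 fold change of -0.33 (95% interval -0.82 to 0.16, adjusted p = 0.327). The other 3 genes of the loop were under the minimum. *Per2* was at 0.154 and 0.247 FPKM in WT and 0.409 and 0.339 in KO. *Arntl2*, a paralog of *Bmal1*, lay the other way, at 0.835 and 0.418 FPKM in WT and 0.110 and 0.298 in KO, and with no minimum its log2 fold change was -1.27 (95% interval -2.47 to -0.06, adjusted p = 0.195 from limma). *Npas2*, a paralog of *Clock*, had at most 0.0932 FPKM, and its groups overlapped.

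The cryptochrome repressors and *Clock*, which encodes the partner of BMAL1, did not pass. *Cry1* ran from 18.5 to 19.8 FPKM over the 4 libraries, with a 95% interval of -0.16 to 0.25 for its log2 fold change. *Cry2* had an interval of -0.13 to 0.34 and *Clock* one of -0.39 to 0.33. All 7 tested kinase and ligase genes, such as *Csnk1d* and *Csnk1e*, missed the threshold, as did the 6 tested REV-ERB corepressor genes, with *Ncor1* at 0.13 and *Hdac3* at -0.03 on the log2 scale. Among the target genes of the PAR bZIP factors in liver and brain, *Pdxk* (0.03), *Por* (-0.28) and *Alas1* (-0.09) were tested and none passed. *Nr1i3* was listed at 0 in both WT libraries and at 0.0878 and 0.0787 FPKM in KO. Of the targets of REV-ERB and ROR proteins 6 were tested and none passed, with *Insig2*, a regulator of sterol synthesis, at 0.09 on the log2 scale (95% interval -0.22 to 0.40). Those 6 include *Arntl*, *Clock*, *Cry1* and *Nfil3*, which are already given above. *Usp2*, an E-box gene for a deubiquitinase, had 0.890 and 0.844 FPKM in WT and 1.76 and 1.37 in KO, a log2 fold change of 0.77 (95% interval 0.24 to 1.31, adjusted p = 0.0748 from limma). The C/EBP-type factors, bZIP proteins related to the PAR family, had 5 tested genes of which none passed, with *Cebpd* highest at 0.77 (adjusted p = 0.165).

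**Figure D4:**
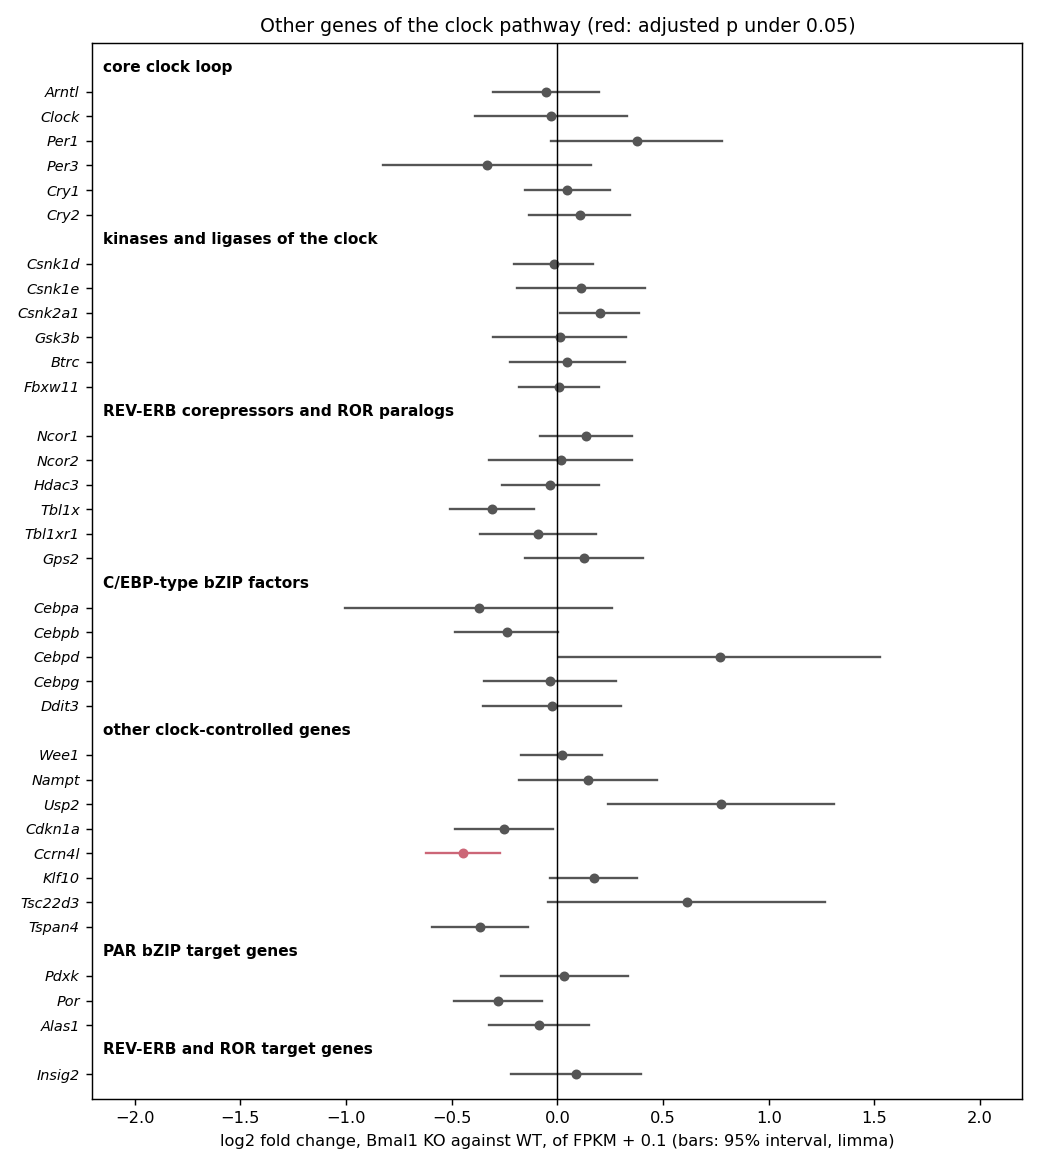
Log2 fold change of *Bmal1* KO against WT (x axis) of 35 of the 37 tested genes in the 7 other lists of the clock pathway, with 95% intervals from limma; each gene is drawn once, under the first list that holds it. *Ccrn4l* (red) is the gene with an adjusted p under 0.05, and *Cebpd* and *Usp2*, both at 0.77, are the highest values.

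Markers of other cell types were read beside these results, and fewer cells of a type and less RNA per cell cannot be told apart in bulk libraries. Of 6 neural progenitor markers 5 were tested, 3 of them higher in KO with an adjusted p under 0.05 (*Sox1*, *Pax6* and *Neurod1*) and 1 lower (*Tubb3*). *Sox1* had 1.32 and 1.39 FPKM in WT and 6.91 and 7.61 in KO. The summed FPKM of the list was 133 and 127 in WT and 95.01 and 88.2 in KO, most of it *Tubb3*. Of 11 ESC markers 0 rose by limma and 3 fell, *Klf4*, *Tdgf1* and *Utf1*, with log2 fold changes of -0.36 to -0.46. At an unadjusted p under 0.05 the counts were 0 and 7. Of all tested features 6.85% were higher and 5.6% lower at the adjusted threshold, and 14.1% and 15.5% at the unadjusted one. Fibroblast markers summed to 2.21 and 1.94 FPKM in WT and 3.58 and 2.95 in KO, mostly *Thy1*, with *Col1a1* at no more than 0.217 and *Col3a1* at no more than 0.0154. *Fbn1* of that list was under the minimum, at 0.284 and 0.263 FPKM in WT and 0.649 and 0.696 in KO. The 7 extraembryonic endoderm markers were each under 1 FPKM in all libraries and summed to 1.17 and 1.26 in WT and 1.96 and 1.84 in KO. Of 7 trophoblast markers 3 were tested, and *Tfap2c* rose by 0.78 on the log2 scale (adjusted p = 0.0187 from limma). *Krt8* had a log2 fold change of -0.36 (adjusted p = 0.058 from limma) and *Krt18* one of -0.07, neither of which passed. *Cdx2* was at most 0.0876 FPKM and lower in both KO libraries, and the list summed to 34.8 and 30.7 FPKM in WT and 31.3 and 31.4 in KO. The part of these markers in the levels of *Bhlhe40*, *Dbp* and *Tef* was not tested.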

How the data were processed

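Total RNA of WT and *Bmal1* KO ESCs was extracted with TRIzol and depleted of ribosomal RNA. According to the methods and the submitters' processing notes, reads were aligned to GRCm38 (mm10) with TopHat2 2.1.1 and Bowtie2 2.3.0. The authors estimated FPKM with Cufflinks 2.2.1 and deposited 1 FPKM table per library, 2 per genotype by their labels. Cufflinks divides reads of overlapping transcripts by a model, so genes with shared coordinates are uncertain, and depth is unknown. File starts count from 0, and 1 was added.

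FPKM were compared as log2 values after a pseudocount of 0.1, for 12990 features with a mean of at least 0.5, with limma 3.58.1 in R 4.3.3 (trended empirical Bayes, Benjamini-Hochberg adjustment over all tested features). A call was an adjusted p under 0.05, and past 2-fold where stated, the threshold of the study. The method was tested on simulated data. Other steps used Python 3.11.15, pandas 2.3.3, scipy 1.17.1 and matplotlib 3.10.9. The genes, lists and tests were chosen with earlier results of these data known. Named were all 10 genes, features with their coordinates, and of the other lists those with an adjusted p under 0.05 and *Arntl*, *Clock*, *Per1*, *Per2*, *Per3*, *Cry1* and *Cry2*, and further genes were named after their values were seen. Loci come from GENCODE M21, and promoters from RefSeq. With 10 alternatives, and each of the 4 libraries left out in turn, results were recomputed. No rank of genes by likeness was made. Some genes of the lists are counted but not reported here by name.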

Additional observations from a re-analysis of the deposited data

How the results depend on the processing

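With a pseudocount of 1, 146 features were called higher and 85 lower in KO past 2-fold, against 353 and 185 with 0.1. Leaving out 1 library gave 305 to 497 features higher and 257 to 323 lower, with 323 without WT replicate 1, 294 without WT replicate 2 and 309 without KO replicate 1; a group left with 1 library is assumed to vary like the other. *Bhlhe40* and *Dbp* kept an adjusted p under 0.05 and a change past 2-fold, and *Tef* an adjusted p under 0.05, under all 10 alternatives, with log2 fold changes of 1.70 to 2.06, 1.04 to 1.46 and 0.67 to 0.86. Each also kept an adjusted p under 0.05 without any 1 library. *Nfil3* ran from -0.34 to 0.0028 with 1 library left out, and turned without WT replicate 1, with an adjusted p of 0.997. With each library scaled to the features with a symbol, 67.6% of features with an adjusted p under 0.05 were higher in KO, against 55% as deposited. With the replicate number as a block, 1807 features had an adjusted p under 0.05 and were higher and 2245 lower, against 890 and 728. *Ciart* was then 1 gene of the 10 that was lower, with an adjusted p of 0.0197, against 0 without the block. The labels tie no WT to a KO library, and the differences between replicates in WT and KO correlated across 12990 features with 0.0712 by Pearson and 0.387 by rank (Spearman), which are not independent; 2 pairs are too few to settle whether the numbers pair the libraries. For *Hlf* and *Bhlhe41*, fits without the FPKM minimum that also changed the pseudocount, the block or the libraries were chosen after seeing the data. The cause of each shift was not tested.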
